A study of Rattus norvegicus with 9 samples.

Results

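The interferon response genes described here are Stat2, Irf1, Irf7, Irf9, Isg15, Mx1, Oas1a, Ifit2 and Ifit3, a list given by name. Each was read by the array feature whose only gene symbol is that name, which gave 9 features for 9 genes, among 29214 features and 14506 genes in all. Affymetrix whole-transcript arrays measured RNA levels in cells cultured from adult Sprague Dawley rats, with 3 arrays of independent samples in each of 3 groups. The groups are Schwann cells derived from dorsal trunk skin-derived precursors (SKPs), Schwann cells of the sciatic nerve, and the dorsal trunk SKPs themselves, which grow as spheres from digested skin. Both kinds of Schwann cell were grown attached to confluence in Schwann cell medium, and no group is labelled as treated with an interferon or a virus. SKP spheres were taken after 1 or 2 passages and Schwann cells after 1, and the tissue label reads dermis for every array, those of nerve cells included. According to the labels, the SKP arrays had been deposited before and were reanalysed, so a batch of these arrays and the SKP group cannot be told apart. The study asks whether skin precursors can give rise to Schwann cells.

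Interferons are secreted proteins, and cells release those of type I on sensing foreign nucleic acid. Type I interferons bind the Ifnar receptor, whose kinases phosphorylate STAT2. With IRF9 it takes part in a complex that binds the interferon-stimulated response element (ISRE) in promoters of antiviral genes. Interferon-gamma signalling acts through a shorter element (GAS), also found at the gene for IRF1. Uninfected cells keep a low basal level of many of these transcripts.

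Values are log2 levels as deposited, after the authors' RMA, and a difference is a log2 difference between group means. A gene was called at a limma adjusted p under 0.05, adjusted with Benjamini-Hochberg over all 14506 genes, and every adjusted p below comes from limma. The deposited values do not share 1 scale, since the array medians were 6.33 to 6.44 in SKP-derived Schwann cells, 6.82 to 6.87 in nerve Schwann cells and 6.2 to 6.27 in SKPs. The median gene differed by -0.01 when SKP-derived Schwann cells were set against SKPs, by 0.46 between nerve Schwann cells and SKPs and by -0.45 between SKP-derived and nerve Schwann cells. After cyclic loess, which brings the arrays to a common scale, these medians were -0.03, -0.03 and -0.02. Loess values therefore stand beside the member differences that moved with the scale. Among the other scalings used below, median centring, done on all features, left the median gene at -0.14, -0.15 and 0.02 in the same order. Quantile normalisation left it at -0.05, -0.03 and -0.04. Schwann cell markers separated both kinds of Schwann cell from SKPs, with 8 of 8 measured markers called higher in either kind. Of all genes 19.3% were called higher in SKP-derived and 49.7% in nerve Schwann cells. Between SKP-derived and nerve Schwann cells, 1 of these 8 markers was called higher and 2 lower. As deposited, 1.33% of all genes were called higher there and 42.3% lower.

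Promoters from RefSeq (build GRCr8, 250 bases before to 50 after the start) matched 7 of the 9 members by symbol. The entries not matched were Ifit2 and Isg15. The ISRE core, searched on both strands as a pair of GAAA with any 2 bases between them, was present in the promoters of Irf7, Oas1a and Ifit3, and in 3.92% of the 33469 rat promoters. The GAS core TTCNNNGAA, which reads the same on both strands, was present in those of Irf1, Irf9 and Oas1a, and in 8.87% of all promoters. The stretches around the match in Irf1 and Irf7, which moved to opposite sides between nerve Schwann cells and SKPs, and in the effector genes Oas1a and Ifit3 are shown 5′ to 3′ on the strand of the gene. Capitals mark the match, the GAS core in Irf1 and the ISRE core in the others.
Irf1, chr10:38417748-38417846, plus strand: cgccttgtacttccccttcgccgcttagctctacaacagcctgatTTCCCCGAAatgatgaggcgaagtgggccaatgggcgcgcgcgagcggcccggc
Irf7, chr1:205800038-205800137, minus strand: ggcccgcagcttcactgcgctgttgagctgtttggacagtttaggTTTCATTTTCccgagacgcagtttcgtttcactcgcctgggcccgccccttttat
Oas1a, chr12:41330380-41330485, plus strand: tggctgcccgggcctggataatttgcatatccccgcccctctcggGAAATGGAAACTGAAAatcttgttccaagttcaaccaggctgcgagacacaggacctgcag
Ifit3, chr1:241527237-241527336, plus strand: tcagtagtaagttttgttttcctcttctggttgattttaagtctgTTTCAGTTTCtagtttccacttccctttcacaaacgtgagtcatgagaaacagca
Counting bases from the start, with -1 just before it, 2 overlapping ISRE cores of Oas1a lie between -41 and -26 on the strand of the gene. The core lies at -69 to -60 in Irf7 and at -44 to -35 in Ifit3, on the opposite strand in both. The GAS core of Irf1 lies at -142 to -134. A match is a description of the letters, and binding was not measured.

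**Figure D1:**
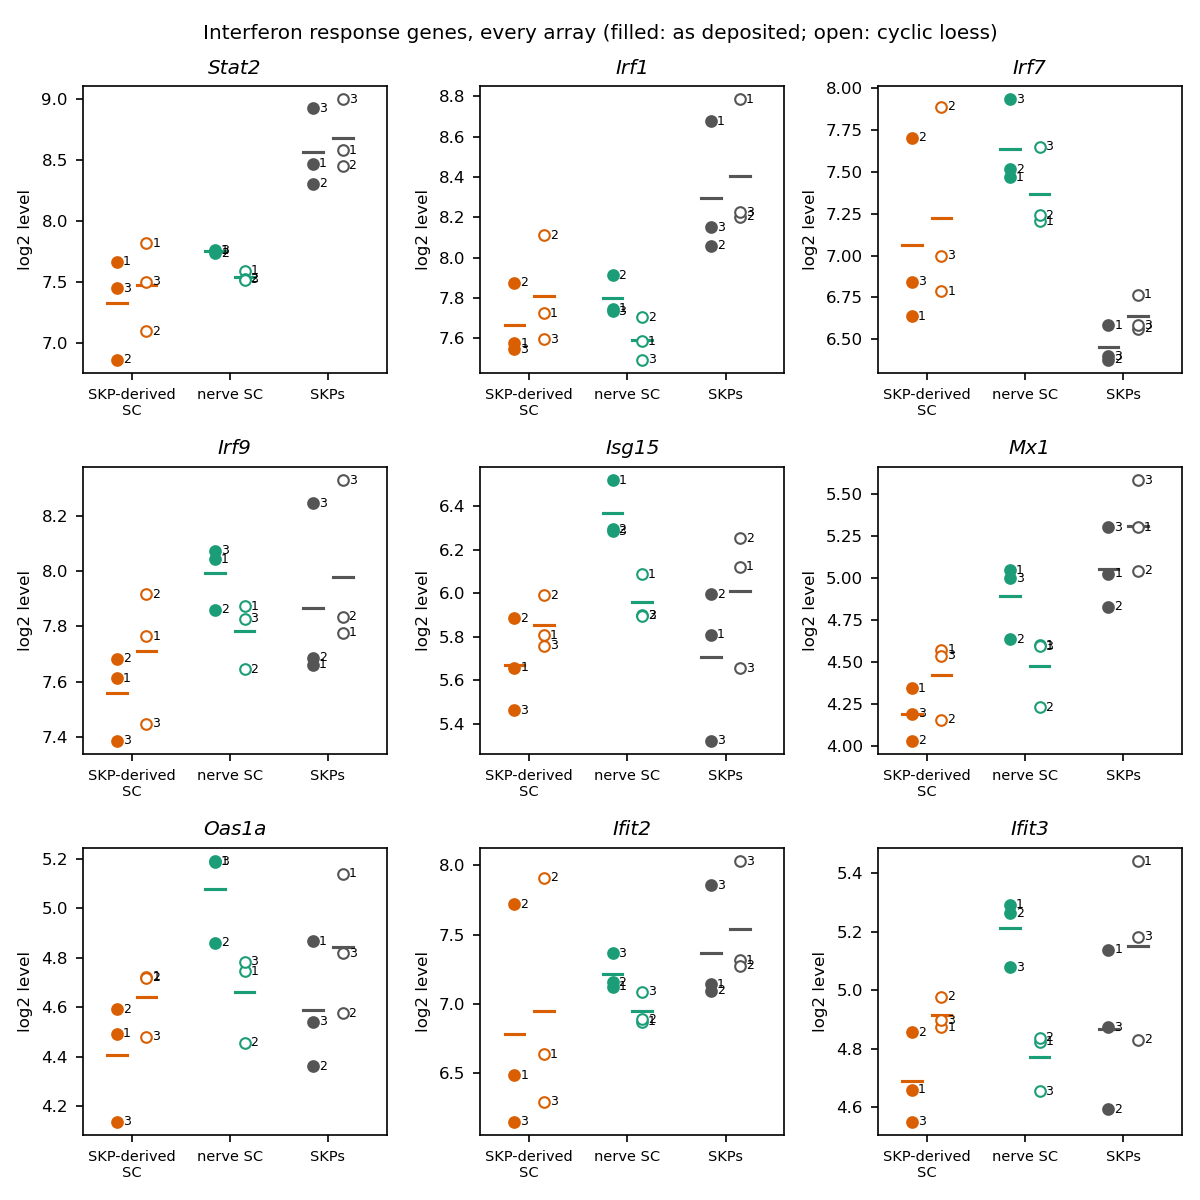
Log2 level of the 9 interferon response genes in every array. Filled points are values as deposited, open points values after cyclic loess, numbers are array numbers and short lines are group means (n = 3). Stat2 and Irf1 lie below every SKP array in both kinds of Schwann cell (SC) on both scales, and Irf7 lies above.

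The regulators Stat2 and Irf1 fell in both kinds of Schwann cell relative to SKPs, whereas Irf7 rose in nerve Schwann cells, though not on every scale, and Irf9 was called in neither. Stat2 encodes the STAT that is dedicated to type I interferon signalling. Its levels were 7.67, 6.86 and 7.45 in SKP-derived Schwann cells and 7.75, 7.74 and 7.76 in nerve Schwann cells, against 8.47, 8.3 and 8.92 in SKPs. All 6 Schwann cell arrays lay below all SKP arrays. The nerve arrays were within 0.02 of each other, while the SKP-derived arrays spanned 0.81, with array 2 lowest. Relative to SKPs, Stat2 differed in SKP-derived Schwann cells by -1.24 (SE 0.22, 2.36-fold lower, limma adjusted p = 0.00196) and in nerve Schwann cells by -0.81 (SE 0.22, 1.76-fold lower, limma adjusted p = 0.0103). Both calls were kept under every alternative setting run, cyclic loess included, where the differences were -1.20 and -1.13.

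Irf1 encodes the interferon regulatory factor that is induced by interferon-gamma and drives many of its targets. Its levels were 7.58, 7.87 and 7.55 in SKP-derived and 7.75, 7.91 and 7.73 in nerve Schwann cells, against 8.68, 8.06 and 8.15 in SKPs. The SKP arrays were again above all others, with SKP array 1 standing highest by 0.53. Relative to SKPs, Irf1 differed in SKP-derived Schwann cells by -0.63 (SE 0.18, limma adjusted p = 0.0210) and in nerve Schwann cells by -0.50 (SE 0.18, limma adjusted p = 0.0367). After cyclic loess these differences were -0.59 and -0.81 and both were called. Without SKP array 1 the differences were -0.44 and -0.31 and neither was called (limma adjusted p = 0.0540 and 0.113). The first call also ended without SKP-derived array 1 or 3 (limma adjusted p = 0.0664 and 0.0596), and in a fit of these groups alone (0.06). The second ended without any single nerve array (limma adjusted p = 0.0569 to 0.10) and with the sample number as a block (0.0523).

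SKP array 1 also had the highest mean of macrophage markers. Of 16 markers, 3 were called lower in SKP-derived Schwann cells than in SKPs and 0 higher. Of all genes 22.3% were lower and 19.3% higher there, so 3 of 16 is near the background. In nerve Schwann cells 1 was called lower and 1 higher, against 14.9% and 49.7% of all genes. The mean of the 16 markers was 8.06 in SKP array 1 against 6.14 and 5.53 in SKP arrays 2 and 3. It was 5.25 to 5.50 in SKP-derived and 5.99 to 6.07 in nerve Schwann cells. Ptprc, the leukocyte surface phosphatase Cd45, stood at 7.66 in SKP array 1 and at 4.64 and 4.13 in the other SKP arrays. Cd163, the marker called higher in nerve Schwann cells, did not follow, at 5.26 in SKP array 1 and 5.36 in SKP array 2. Macrophages express Irf1, and the part of these cells in its level was not tested. In these bulk samples, fewer cells of a type and less RNA per cell cannot be told apart. No marker has a true zero on this scale.

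Irf7 encodes the factor that amplifies type I interferon production, and it moved the other way. Its levels were 6.64, 7.7 and 6.85 in SKP-derived and 7.47, 7.51 and 7.93 in nerve Schwann cells, against 6.58, 6.38 and 6.40 in SKPs. All 6 Schwann cell arrays lay above the SKP arrays, although SKP-derived array 1 did so by only 0.05. In nerve Schwann cells Irf7 rose by 1.18 (SE 0.26, 2.27-fold, limma adjusted p = 0.00321). The difference was 0.73 after cyclic loess (limma adjusted p = 0.0477), but the call ended after median centring (0.58, limma adjusted p = 0.0804) and quantile normalisation (0.71, limma adjusted p = 0.0577). For SKP-derived Schwann cells the difference of 0.61 (SE 0.26, limma adjusted p = 0.0898) was not called. It was 0.82 and called without SKP-derived array 1 (limma adjusted p = 0.0418), and 0.29 without array 2.

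Irf9 encodes the DNA-binding subunit of the complex that holds STAT2. Its levels were 7.61, 7.68 and 7.39 in SKP-derived and 8.04, 7.86 and 8.07 in nerve Schwann cells, against 7.66, 7.69 and 8.25 in SKPs. Both kinds of Schwann cell overlapped with SKPs, of which array 3 stood above every other array. The SKP-derived arrays lay below all nerve arrays as deposited. The differences from SKPs were -0.30 in SKP-derived Schwann cells (limma adjusted p = 0.204) and 0.13 in nerve Schwann cells (limma adjusted p = 0.553). After cyclic loess they were -0.27 and -0.20, so the nerve difference turned its sign, and neither was called.

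Among the effectors, Mx1 was the only gene called between SKP-derived Schwann cells and SKPs. Mx1 encodes a dynamin-like GTPase that blocks viral replication. Its levels were 4.35, 4.03 and 4.19 in SKP-derived and 5.05, 4.64 and 5.0 in nerve Schwann cells, against 5.03, 4.83 and 5.30 in SKPs. The SKP-derived arrays lay below every other array, and the nerve arrays overlapped with SKPs. In SKP-derived Schwann cells Mx1 fell by 0.86 (SE 0.17, 1.82-fold lower, limma adjusted p = 0.00347) and kept that call under every alternative in which it was tested. The filter on low levels leaves it out. In nerve Schwann cells it differed by -0.16 as deposited (limma adjusted p = 0.441) and by -0.84 after cyclic loess, where it was called (limma adjusted p = 0.00534). Median centring (-0.76) and quantile normalisation (-0.89) gave a call too.

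Isg15 encodes a ubiquitin-like protein that is joined to other proteins in interferon-treated cells. Its levels were 5.66, 5.89 and 5.46 in SKP-derived and 6.52, 6.29 and 6.29 in nerve Schwann cells, against 5.81, 6.0 and 5.32 in SKPs. The nerve arrays were highest as deposited, and SKP-derived Schwann cells and SKPs overlapped. Isg15 rose in nerve Schwann cells by 0.66 as deposited (SE 0.19, limma adjusted p = 0.0139). The median difference was 0.46 over all genes. It was 0.70 among genes of like level, in the bin that holds Isg15 out of 5 equal bins by mean level. After cyclic loess the Isg15 difference was -0.051 (limma adjusted p = 0.822). The deposited call also ended without nerve array 1 (limma adjusted p = 0.0558). SKP-derived Schwann cells differed from SKPs by -0.04 (SE 0.19, limma adjusted p = 0.884).

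Oas1a encodes an oligoadenylate synthetase, which activates RNA cleavage on binding double-stranded RNA. It belongs to a family with close copies in rat, and whether the feature reads several of them was not tested. Its levels were 4.49, 4.59 and 4.14 in SKP-derived and 5.19, 4.86 and 5.19 in nerve Schwann cells, against 4.87, 4.36 and 4.54 in SKPs. SKP array 1 overlapped with the nerve arrays, and the remaining SKP arrays with the SKP-derived ones. Oas1a rose in nerve Schwann cells by 0.49 as deposited (SE 0.18, limma adjusted p = 0.0404), against -0.18 after cyclic loess (limma adjusted p = 0.398). The deposited median difference was 0.63 in the lowest of the 5 bins of genes by level, which holds Oas1a. Leaving out SKP-derived array 1, nerve array 1 or 3, or SKP array 2 or 3 ended the call as deposited (limma adjusted p up to 0.132). Between SKP-derived Schwann cells and SKPs it differed by -0.18 (limma adjusted p = 0.457).

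Ifit2 and Ifit3 encode tetratricopeptide repeat proteins that bind viral RNA or its caps in other mammals, chiefly known from human and mouse. Ifit2 stood at 6.48, 7.72 and 6.15 in SKP-derived and 7.12, 7.15 and 7.37 in nerve Schwann cells, against 7.14, 7.10 and 7.86 in SKPs. SKP-derived array 2 lay above its own group by over 1 log2 unit and above all nerve arrays. Relative to SKPs, Ifit2 differed in SKP-derived Schwann cells by -0.58 (SE 0.37, limma adjusted p = 0.237) and in nerve Schwann cells by -0.15 (limma adjusted p = 0.737). Without SKP-derived array 2 the first was -1.05 and was called (limma adjusted p = 0.00962). On the loess scale the nerve difference of Ifit2 was -0.59 (limma adjusted p = 0.228). Ifit3 stood at 4.66, 4.86 and 4.55 in SKP-derived and 5.29, 5.26 and 5.08 in nerve Schwann cells, against 5.14, 4.59 and 4.87 in SKPs. SKPs overlapped with both. Ifit3 differed from SKPs by -0.18 in SKP-derived Schwann cells (limma adjusted p = 0.413) and by 0.34 in nerve Schwann cells (limma adjusted p = 0.0942), where it was called without SKP array 1 (limma adjusted p = 0.0306). After cyclic loess the nerve difference was -0.38 (limma adjusted p = 0.0747).

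**Figure D2:**
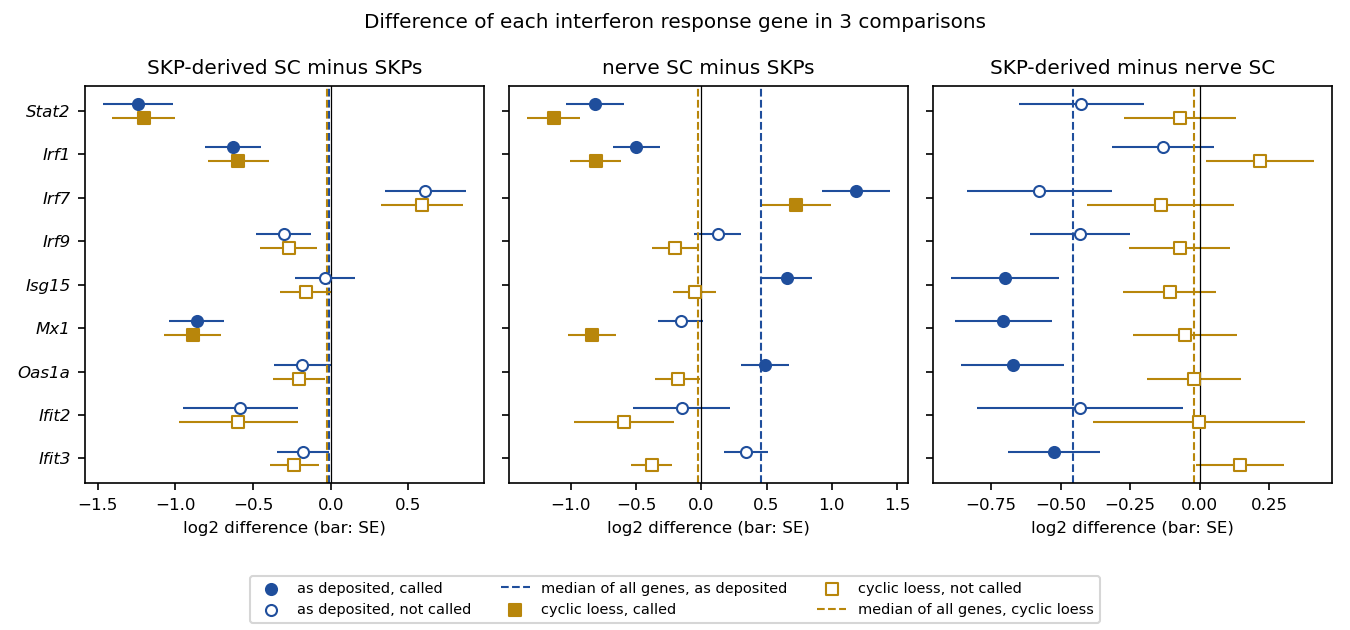
Log2 difference of each interferon response gene (points, with SE as bars) in the 3 comparisons, as deposited (circles) and after cyclic loess (squares). Filled symbols are called at a limma adjusted p under 0.05, and dashed lines mark the median of all 14506 genes. In the comparison of SKP-derived with nerve Schwann cells (SC) every deposited difference is below 0 and lies around the shifted median, and no loess difference is called.

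Counted over the list, 3 of 9 members fell (Stat2, Irf1 and Mx1) and 0 rose in SKP-derived Schwann cells relative to SKPs, where limma called 22.3% of all genes lower and 19.3% higher. At an unadjusted p under 0.05, 3 were lower and 1 higher. Their median difference was -0.30, against -0.01 over all genes. After cyclic loess the same 3 genes were called lower and 0 higher (3 and 0 at an unadjusted p under 0.05), with 23.9% of all genes lower and 18.6% higher. In nerve Schwann cells 2 members fell (Stat2 and Irf1) and 3 rose (Irf7, Isg15 and Oas1a), where 14.9% of all genes were called lower and 49.7% higher. Their median was 0.13, below the median gene at 0.46. After cyclic loess 3 members fell in nerve Schwann cells (Stat2, Irf1 and Mx1) and only Irf7 rose, with 25.6% of all genes lower and 22.4% higher. The median of the members was then -0.38. Both comparisons use the same SKP arrays and are not independent of each other. A stricter rule asked for a call of 1 direction on 4 scales, namely the deposited one, median centring, cyclic loess and quantile normalisation. It kept Stat2, Irf1 and Mx1 as lower in SKP-derived Schwann cells, and Stat2 and Irf1 in nerve Schwann cells, with no member higher in either. This rule called 21.4% of all genes lower and 14.3% higher in SKP-derived Schwann cells than in SKPs, and 14.9% lower and 15.3% higher in nerve Schwann cells.

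SKP-derived and nerve Schwann cells differed at 4 members as deposited, all lower in SKP-derived cells, and at none once the scale was shared. Isg15 fell by 0.70 (SE 0.19, limma adjusted p = 0.0186), Mx1 fell by 0.71 (SE 0.17, limma adjusted p = 0.0120), Oas1a fell by 0.67 (SE 0.18, limma adjusted p = 0.0179) and Ifit3 fell by 0.52 (SE 0.17, limma adjusted p = 0.0303). All 4 are read by dim features. The median difference of all genes was -0.66 in the lowest of 5 equal bins of genes by mean level, which holds Mx1, Oas1a and Ifit3, and -0.60 in the next bin, which holds Isg15. As deposited 42.3% of all genes were called lower in SKP-derived than in nerve Schwann cells and 1.33% higher, so 4 of 9 is near the background. After cyclic loess limma called 0 of 9 members, and 0 had an unadjusted p under 0.05. All genes were then called at 0.6% lower and 0.731% higher, and on all 4 scales at 0.352% lower and 0.476% higher. The loess differences ran from -0.14 for Irf7 to 0.22 for Irf1, with Irf1 and Ifit3 (0.14) on the other side of 0 from their deposited values. Single arrays also ended the deposited calls. Mx1 was no longer called without nerve array 1, Isg15 without nerve array 1 or SKP-derived array 3, Oas1a without nerve array 1 or 3 or SKP-derived array 3, and Ifit3 without any nerve array or SKP-derived array 1 or 3 (limma adjusted p up to 0.095 for Ifit3).

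The remaining members did not pass this comparison as deposited either. Stat2 differed by -0.42 (limma adjusted p = 0.148), Irf9 by -0.43 (0.0770), Irf7 by -0.58 (0.0983), Ifit2 by -0.43 (0.358) and Irf1 by -0.13 (0.569). The spread within the SKP-derived group was wide for some of them, at 1.57 for Ifit2, 1.07 for Irf7 and 0.81 for Stat2 between its highest and lowest array. In the nerve group the widest range of any member was 0.47, for Irf7. Without SKP-derived array 2, Irf7 differed by -0.90 (limma adjusted p = 0.00712) and Ifit2 by -0.90 (limma adjusted p = 0.0215), and both were called. Irf9 was called without SKP array 3 (limma adjusted p = 0.0252), which enters only through the shared estimate of the spread. As deposited, SKP-derived array 2 held the highest value of its group for 7 of the 9 members. The exceptions were Stat2 and Mx1, which were lowest there. After cyclic loess Oas1a was highest in array 1 instead, at 4.722 against 4.720 in array 2. The share of all genes that were highest in array 2 was not computed.

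By marker means, SKP-derived array 2 was also the highest of its group for dermal mesenchyme and the lowest for Schwann cells. Not every marker followed the mean of its list. The mesenchymal Pdgfrb, Col1a1 and Col1a2 were lowest in array 2, and the Schwann cell markers Cdh19, Pmp2 and Gfap were lowest in array 3. The mean of 11 dermal mesenchyme markers was 8.43, 10.15 and 9.22 in SKP-derived arrays 1 to 3, against 9.30, 10.05 and 8.91 in nerve Schwann cells and 12.15, 12.09 and 10.51 in SKPs. The mean of 8 Schwann cell markers was 11.14, 10.23 and 10.69 in the SKP-derived arrays, 11.19 to 11.35 in nerve Schwann cells and 5.30 to 5.46 in SKPs. The macrophage marker mean was 5.32, 5.50 and 5.25 in SKP-derived arrays 1 to 3 as deposited, below the nerve arrays at 5.99 to 6.07. After cyclic loess it was 5.49, 5.63 and 5.52, and array 2 lay within the nerve range of 5.62 to 5.70. The part of residual precursors or fibroblasts in the Irf7 and Ifit2 levels of SKP-derived array 2 was not tested.

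**Figure D3:**
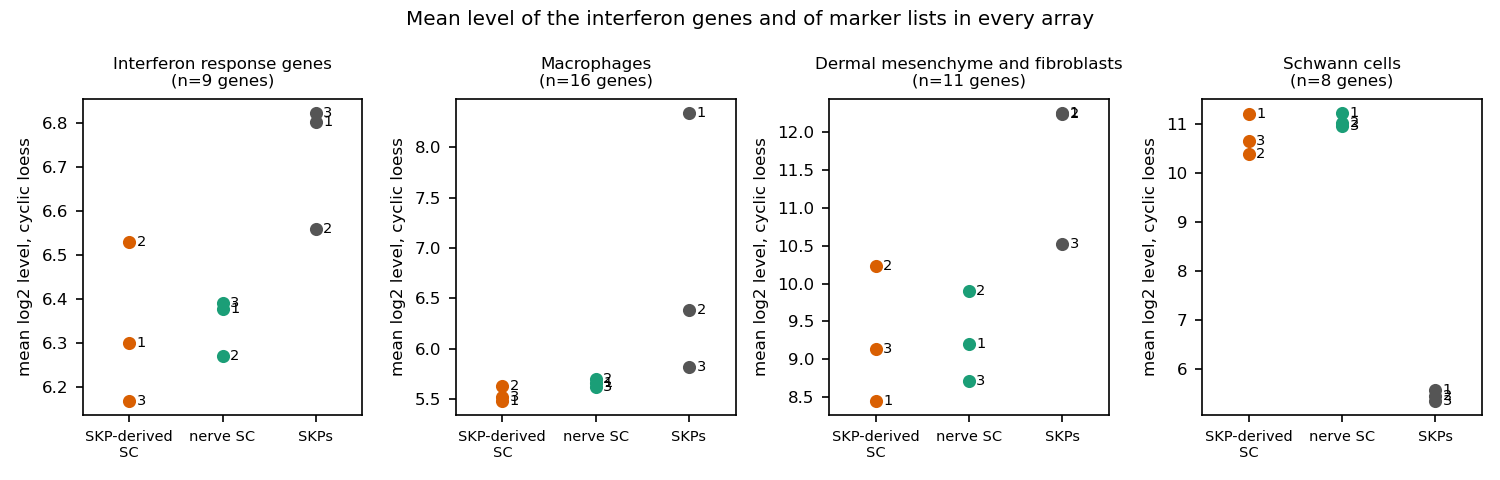
Mean log2 level after cyclic loess of the 9 interferon response genes and of macrophage, dermal mesenchyme and Schwann cell markers, in every array (numbers). SKP array 1 stands apart on macrophage markers, and SKP-derived Schwann cell (SC) array 2 has the highest interferon gene and mesenchymal means of its group.

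The members differed in how they varied. Over the 36 pairs of members and the 9 arrays, Pearson's r of the levels ran from -0.67 (Stat2 and Irf7) to 0.90 (Oas1a and Ifit3), with a median of 0.43. After centring each gene on its group means, r ran from -0.78 (Stat2 and Isg15) to 0.88 (Irf1 and Ifit3), with a median of 0.26. These values are descriptions over arrays that share the scale differences given above. The genes outside the list whose levels were most like the mean of the members were Or5af1 (r = 0.98), Lgmn (0.97), Yipf5 (0.97), Mcmdc2 (0.96) and Ccdc152 (0.96). After centring on group means they were Cstb (0.98), Chmp5 (0.97), Spock1 (0.97), Sftpa1 (0.97) and Actr6 (0.96). None of these 10 is in the wider interferon list described next.

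A wider list of 120 interferon pathway genes, of which 93 were measured, was read by role. Ifnar2 and Tyk2 had no feature naming them alone and are not analysed here. In SKP-derived Schwann cells 29 of the 93 fell and 15 rose relative to SKPs (31 and 14 on the loess scale), with a median of -0.20. The shares of all genes there were 22.3% lower and 19.3% higher (23.9% and 18.6% on the loess scale). Against the same SKP arrays, nerve Schwann cells had 18 called lower and 37 called higher (31 and 19 on the loess scale), with a median of 0.29 as deposited and -0.16 after loess. Of all genes 14.9% were lower and 49.7% higher there (25.6% and 22.4% on the loess scale). When SKP-derived were set against nerve Schwann cells, limma called 46 lower and 0 higher as deposited (55 and 0 at an unadjusted p under 0.05), and 0 either way after cyclic loess (15 and 2 at an unadjusted p under 0.05). The 46 of 93 compare with 42.3% of all genes as deposited. These shares are the background of every role count that follows. Differences given below for single genes are as deposited.

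Some receptor chains rose in Schwann cells while the kinases Jak1 and Jak2 fell. Ifnar1, a chain of the type I interferon receptor, rose in SKP-derived Schwann cells by 0.85 (SE 0.16, limma adjusted p = 0.00267) and by 0.86 in nerve Schwann cells (limma adjusted p = 0.00151). Its levels were 9.96, 10.12 and 10.07 in SKP-derived and 9.97, 9.87 and 10.32 in nerve Schwann cells, against 9.35, 9.30 and 8.95 in SKPs. Ifngr1, the ligand-binding chain for interferon-gamma, rose by 1.13 in SKP-derived and 0.99 in nerve Schwann cells. Its partner chain Ifngr2 rose by 0.66 and 1.17, the smaller value not being called without SKP-derived array 1 (limma adjusted p = 0.0634) or after median centring. Ifnar1 and Ifngr1 were likewise not called in nerve Schwann cells after median centring. Jak1, the kinase shared by both receptors, stood at 9.27, 9.41 and 9.26 in SKP-derived and 9.66, 9.83 and 9.94 in nerve Schwann cells, against 11.49, 11.42 and 10.97 in SKPs. Jak1 fell in SKP-derived Schwann cells by 1.98 (SE 0.16, limma adjusted p = 2.37e-05) and fell by 1.48 in nerve Schwann cells (limma adjusted p = 8.71e-05). Jak2 fell by 1.5 and fell by 1.37. In SKP-derived Schwann cells 3 of the 6 measured genes of this role rose and 2 fell, and in nerve Schwann cells 4 rose and 2 fell (3 and 2 after cyclic loess). All genes rose at 19.3% in the first comparison and at 49.7% in the second (22.4% after cyclic loess). Il10rb, a receptor chain, was not called in SKP-derived Schwann cells (0.10, limma adjusted p = 0.67).

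Of 4 measured interferon genes, Ifna4 was called higher in SKP-derived Schwann cells, and Ifna4, Ifnb1 and Ifnk in nerve Schwann cells. After cyclic loess 1 and 2 were called. The Ifna4 difference of 0.43 in SKP-derived Schwann cells lost its call without SKP-derived array 1 or 2 or SKP array 2 (limma adjusted p up to 0.0624). It also lost it after median centring, after quantile normalisation and in a fit of these groups alone. The Ifnk difference in nerve Schwann cells was not called on any of the other 3 scales. Ifnb1, the interferon-beta gene, stood at 4.98, 5.33 and 4.74 in SKP-derived and 6.04, 5.85 and 5.88 in nerve Schwann cells, against 4.41, 4.5 and 4.98 in SKPs. It rose in nerve Schwann cells by 1.30 (limma adjusted p = 0.000439), and by 0.54 after cyclic loess (limma adjusted p = 0.0308). Detection calls were not used here, so whether such a level is above background was not tested.

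Sensors of foreign RNA and their adaptors were mixed. Mavs, the mitochondrial adaptor of RNA sensing, rose by 1.10 in SKP-derived Schwann cells and by 1.19 in nerve Schwann cells. Ikbke, a kinase that activates IRF proteins, fell by 2.15 and fell by 1.75. Ifih1, which encodes the RNA sensor MDA5, fell by 0.84 in SKP-derived Schwann cells (limma adjusted p = 0.00105) and differed by -0.15 in nerve Schwann cells (limma adjusted p = 0.373), where the other 3 scalings called it lower. Of the 10 measured, 2 fell and 1 rose in SKP-derived Schwann cells, where 22.3% of all genes fell. Nerve Schwann cells had 1 lower and 3 higher (4 and 1 after cyclic loess), a share of higher genes below the 49.7% of all genes.

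Of 6 other transcription factors, 3 rose and 1 fell in SKP-derived Schwann cells, where 19.3% of all genes rose. Nerve Schwann cells had 4 higher and 0 lower, where 49.7% of all genes rose, and after cyclic loess 3 rose and 2 fell. Irf2, known as an antagonist of IRF1 at shared sites, rose in SKP-derived Schwann cells by 1.27 (SE 0.14, limma adjusted p = 0.000134) and by 1.86 in nerve Schwann cells (limma adjusted p = 1.56e-05). Its levels were 9.21, 8.98 and 9.19 in SKP-derived and 9.62, 9.69 and 9.84 in nerve Schwann cells, against 7.64, 7.93 and 8.0 in SKPs. Irf2 was thus higher in all 6 Schwann cell arrays where Irf1 was lower. Stat3, which serves many cytokine receptors, rose by 0.92 and 1.67.

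Of 22 further antiviral effectors, 5 fell and 2 rose in SKP-derived Schwann cells, and 3 fell and 11 rose in nerve Schwann cells (5 and 4 after cyclic loess). The 5 lower and the 11 higher are near the shares of all genes, 22.3% and 49.7%. Mx2, the paralog of Mx1, stood at 6.50, 4.86 and 6.88 in SKP-derived and 7.73, 7.21 and 7.54 in nerve Schwann cells, against 4.54, 4.43 and 4.90 in SKPs. SKP-derived array 2, which had the lowest Mx1 of its group, overlapped with SKPs here. Mx2 rose in SKP-derived Schwann cells by 1.45 (SE 0.44, limma adjusted p = 0.0249) and by 2.87 in nerve Schwann cells (limma adjusted p = 0.000463), opposite to the fall of Mx1 in SKP-derived cells. The call in SKP-derived cells ended without SKP-derived array 1 or 3 or SKP array 1 or 2 (limma adjusted p up to 0.0863). Ifitm2, a membrane protein that restricts viral entry, fell by 2.6 in nerve Schwann cells (SE 0.90, limma adjusted p = 0.0293), a call lost without nerve array 1 or 3 or SKP array 1 or 2 (limma adjusted p up to 0.101). SKP-derived Schwann cells differed from SKPs by -2.18 (limma adjusted p = 0.0811), with levels of 6.82, 10.62 and 8.13 in arrays 1 to 3, and were called without array 2 (limma adjusted p = 0.00729).

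Among genes that act on ISG15, Usp18 and Ube2l6 fell in both kinds of Schwann cell. Usp18 encodes the protease that removes ISG15 and damps the Ifnar receptor. It stood at 3.69, 3.56 and 3.49 in SKP-derived and 4.46, 4.43 and 4.66 in nerve Schwann cells, against 7.72, 7.37 and 6.78 in SKPs. The groups were far apart, and SKP array 1 was again the highest. Usp18 fell in SKP-derived Schwann cells by 3.71 (SE 0.22, limma adjusted p = 4.48e-06) and fell by 2.77 in nerve Schwann cells (limma adjusted p = 1.65e-05). Ube2l6, the conjugating enzyme for ISG15, fell by 1.97 and fell by 1.37, while Isg15 itself was not called lower in either. The role counted is wider, ISG15 conjugation together with feedback genes such as Pias1 and Ptpn11. Of its 9 measured genes, 4 fell in SKP-derived Schwann cells (Uba7, Ube2l6, Usp18 and Ptpn11) and 1 rose (Pias1). Of all genes 22.3% fell and 19.3% rose there. Nerve Schwann cells had 3 lower and 2 higher (4 and 1 after cyclic loess), against 14.9% and 49.7%.

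Of 19 other genes induced by type I interferon, 9 fell and 2 rose in SKP-derived Schwann cells, where 22.3% of all genes fell. Nerve Schwann cells had 3 lower and 2 higher (7 and 2 on the loess scale), and the 3 lower are near the 14.9% of all genes. Ifi27, a mitochondrial interferon-induced protein, stood at 6.54, 7.58 and 7.16 in SKP-derived and 7.43, 7.65 and 7.61 in nerve Schwann cells, against 10.24, 10.57 and 10.97 in SKPs. It fell by 3.50 in SKP-derived (SE 0.27, limma adjusted p = 1.52e-05) and fell by 3.03 in nerve Schwann cells (limma adjusted p = 2.96e-05). Here SKP array 1 was the lowest of the SKP arrays. The interferon-gamma-induced GTPase Gbp2 went to the other side, at 10.01, 9.98 and 9.19 in SKP-derived and 10.70, 11.15 and 11.59 in nerve Schwann cells, against 8.29, 7.97 and 8.40 in SKPs. Gbp2 rose by 1.51 in SKP-derived (limma adjusted p = 0.00217) and by 2.92 in nerve Schwann cells (limma adjusted p = 4.25e-05). Of the 9 measured GTPases and chemokines of this kind, 2 rose and 1 fell in SKP-derived Schwann cells, and 7 rose and 1 fell in nerve Schwann cells (3 and 2 after cyclic loess). The share of all genes that rose in nerve Schwann cells was 49.7% as deposited and 22.4% after cyclic loess. Of interferon-induced antigen processing genes, 5 of 8 fell in both kinds of Schwann cell, and 0 rose in SKP-derived and 1 in nerve Schwann cells (0 after cyclic loess). Of all genes 22.3% fell in SKP-derived and 14.9% in nerve Schwann cells. Tap1, a subunit of the peptide transporter, stood at 6.6, 6.73 and 6.91 in SKP-derived and 7.51, 7.51 and 7.60 in nerve Schwann cells, against 9.31, 9.11 and 9.36 in SKPs. Its SKP arrays lay far above all Schwann cell arrays and close to each other, SKP array 1 included. It fell by 2.52 in SKP-derived (SE 0.13, limma adjusted p = 2.77e-06) and fell by 1.72 in nerve Schwann cells (limma adjusted p = 1.57e-05). Psmb8, a subunit of the immunoproteasome, fell by 2.45 and fell by 1.83.

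**Figure D4:**
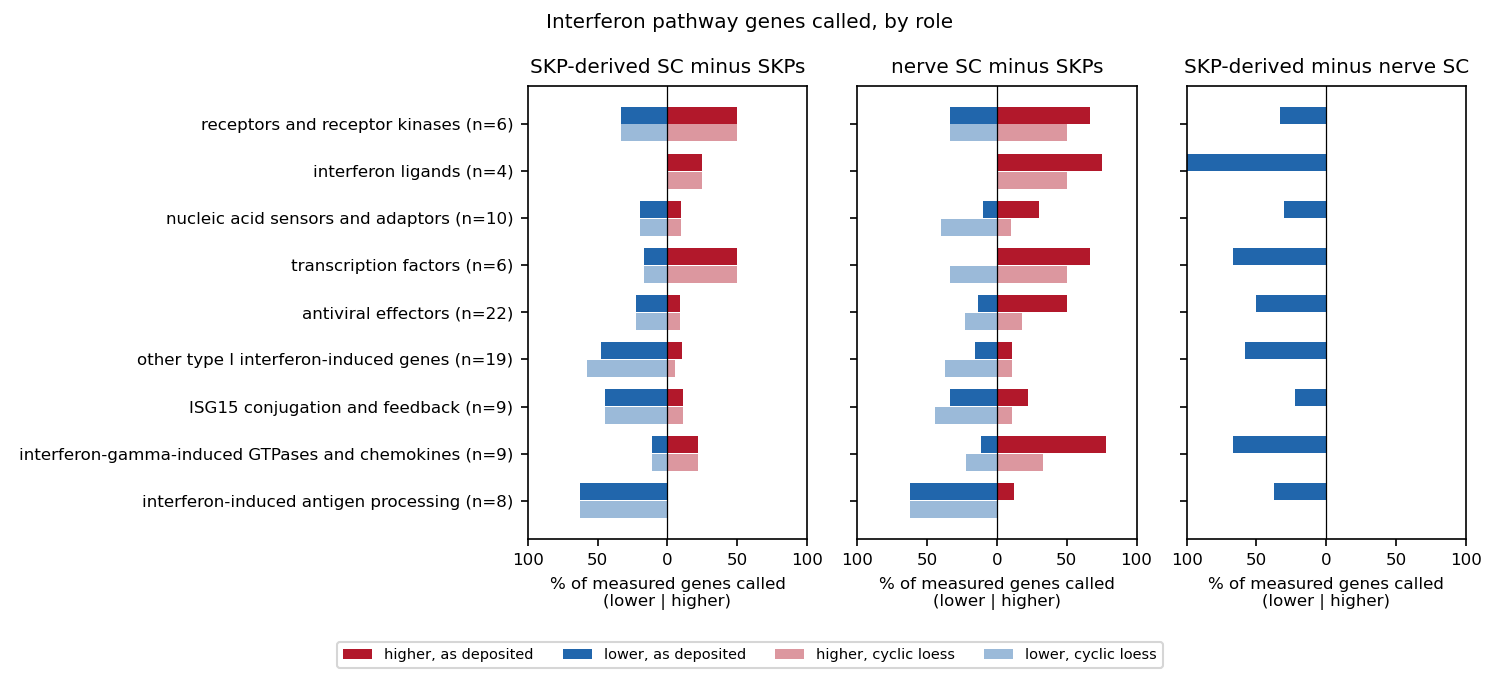
Share of the measured genes of each interferon pathway role called higher (to the right) or lower (to the left) in the 3 comparisons, as deposited (dark) and after cyclic loess (light). SC, Schwann cells. Antigen processing genes are called lower at 5 of 8 in both comparisons with SKPs, and no role has a call between SKP-derived and nerve Schwann cells after loess.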

How the data were processed

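RNA of 9 cultures was measured on Affymetrix arrays, 3 per group, with groups taken from the sample titles. The authors deposited log2 values, whose software was Affymetrix Expression Console with RMA (per the submitters' processing notes). The sources used here do not give its version, or whether all arrays were normalised together. The number of arrays limits the precision. The p-values set a group difference against the spread between cultures within the 3 groups. A batch shared by all SKP arrays is not part of that spread.

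Features were named from the platform annotation. Of 29214 features, 15310 have 1 gene symbol, 323 several and 13581 none. The feature with the highest mean stood for each of 14506 genes, and no member had a second feature. Group means of all 9 arrays were fitted with limma 3.58.1 in R 4.3.3 (lmFit, eBayes), with Benjamini-Hochberg adjustment over all genes, after the fit was tested on simulated data.

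The genes named are the 9 members, up to 4 called genes with the largest change per role list, fixed genes (among them Ifnar1, Ifnar2, Jak1 and Tyk2) and the 5 genes most like the member mean, by 2 measures. Not every gene this admits is described. Members and lists were chosen with earlier results of these data known. Alternatives were 3 other scalings, a filter on low levels, the mean of a gene's features, fits of 2 groups, other variance models, array weights, a replicate block and leaving out each array.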

Additional observations from a re-analysis of the deposited data

Results flagged for a closer look

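For 4 members the difference from SKPs was flagged as unlike in SKP-derived and in nerve Schwann cells. The SKP arrays cancel out of this contrast, so it is the comparison of SKP-derived with nerve Schwann cells given above. As deposited, limma called 42.3% of all genes lower and 1.33% higher there. The values, SKP-derived minus nerve Schwann cells, were -0.70 for Isg15, -0.71 for Mx1, -0.67 for Oas1a and -0.52 for Ifit3. After cyclic loess they were -0.11, -0.05, -0.02 and 0.14, and none was called (limma adjusted p = 0.650 to 0.958).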

How the results depend on the processing

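All 3 calls of lower members in SKP-derived Schwann cells against SKPs (Stat2, Irf1 and Mx1) held under the 4 scalings, and Stat2 and Mx1 also without any single array. The number of members lower there was 2 to 4 when single arrays were left out, and of members higher 0 to 1. In nerve Schwann cells against SKPs, 3 members higher as deposited became 0 after median centring, 1 after cyclic loess and 0 after quantile normalisation. It was 0 on the genes above the median level, where only Stat2, Irf1 and Irf9 are tested, and 0 for calls under all 4 scalings. Cyclic loess gave 0 without SKP array 1 and 1 without SKP-derived array 2. Leaving out single arrays gave 1 to 4 higher and 1 to 2 lower, against 2 lower, and cyclic loess without SKP-derived array 2 gave 4 lower. Between SKP-derived and nerve Schwann cells, 4 lower members became 0 after median centring, cyclic loess (also without SKP array 1 or SKP-derived array 2), quantile normalisation, the level filter and the rule of all 4 scalings. Array weights gave 7, and leaving out single arrays gave 0 to 6, with 0 without nerve array 1, 1 without SKP-derived array 3 and 2 without nerve array 3. The level filter removes the dim members. For the other changes the cause was not tested.

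Differences called as deposited that turned their sign were as follows. In nerve Schwann cells against SKPs, Isg15 was -0.051 after cyclic loess (also without SKP-derived array 2) and -0.036 after quantile normalisation. Oas1a was -0.11 after median centring, -0.18 after cyclic loess (also without SKP-derived array 2), -0.23 after quantile normalisation and -0.0345 after cyclic loess without SKP array 1. Irf4 was -0.0079, -0.16 and -0.14 under the 3 scalings in the same order, with -0.13 and -0.16 after cyclic loess without SKP array 1 or SKP-derived array 2. Ifnk was -0.040 after cyclic loess without SKP array 1. Between SKP-derived and nerve Schwann cells, Ifit3 was 0.14 after cyclic loess, 0.12 after quantile normalisation, and 0.14 and 0.11 after cyclic loess without SKP array 1 or SKP-derived array 2. Ifng was 0.0079 after median centring, 0.14 after cyclic loess, 0.18 after quantile normalisation, and 0.14 and 0.11 without those arrays. Irf3 was 0.019 after median centring, and after cyclic loess without SKP-derived array 2 Mx1 was 0.079 and Irf4 0.013. Member differences not called as deposited turned too. In nerve Schwann cells against SKPs these were Irf9 (-0.48 after median centring, -0.20 after cyclic loess, -0.18 after quantile normalisation) and Ifit3 (-0.26, -0.38 and -0.40). Ifit2 turned there without SKP array 3 (0.095). Isg15 in SKP-derived Schwann cells against SKPs turned without SKP-derived array 3 or SKP array 1 or 2 (up to 0.10). Between SKP-derived and nerve Schwann cells, Irf1 was 0.34, 0.22 and 0.22 under the 3 scalings. Stat2 was 0.12 after cyclic loess without SKP-derived array 2. After median centring Stat2 was 0.046, Irf9 0.040 and Ifit2 0.040 (0.041 after quantile normalisation).

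The titles number the samples 1 to 3 in each group, but no label says that a number pairs them, and the deviations of same-numbered arrays correlated at -0.12 to 0.29. With the number as a replicate block, 1 member was called lower in nerve Schwann cells against SKPs in place of 2, since Irf1 had a limma adjusted p of 0.0523. Rules that combine cyclic loess with a left-out array, and calls under all 4 scalings, were added after seeing the data. No detection calls were used, so dim members have no lower limit of measurement.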
